A study of Mus musculus with 6 samples.

Results

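The 10 genes described here encode transcription factors that retinal ganglion cells, the output neurons of the eye, use to acquire and keep their identity: Pou4f1, Pou4f2 and Pou4f3 of the Brn3 family, Isl1 and Isl2 of the Islet family, Ebf1 and Ebf3, the Iroquois factor Irx4, and the T-box factors Eomes and Tbr1. They were taken by symbol from the 10361 gene names of the expression table, each had 1 assembled locus, and all 10 passed the filter on low values. RNA was sequenced from mouse retinal ganglion cells of strain C57/6NCrl, all wild type (WT), in 3 groups of 2 libraries. The adult mCherry group carried an AAV2 vector (a recombinant adeno-associated virus that transduces retinal ganglion cells from the vitreous) expressing a scrambled shRNA mimic and mCherry. The adult miR1247 group carried AAV2 expressing a mimic of miR-1247-5p. In both adult groups, cells from 10 retinas per condition were captured on antibody to Thy1 and then sorted for mCherry, which gave about 5000 cells per condition. The E18 group was taken at embryonic day 18, was captured on Thy1 antibody without sorting, carried no vector and held about 50000 cells. Developmental age, vector, sorting and cell number therefore cannot be told apart in any comparison of E18 with adult cells. Nothing in the labels ties the libraries of a group to separate animals, so p-values measure the spread between libraries, which may be technical.

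Retinal ganglion cells are the first neurons to leave the cell cycle in the mouse retina. The basic helix-loop-helix factor Atoh7 makes progenitors competent for this fate, and Pou4f2 and Isl1, which act together downstream of it, switch on the genes of axon growth and ganglion cell differentiation. Related factors are then kept in different subsets of the mature cells: Pou4f1 and Pou4f3 with dendrite type, Isl2 in many cells whose axons cross to the other side of the brain in mice, Eomes in the light-sensitive ganglion cells that contain melanopsin, and Tbr1 in a group of OFF ganglion cells that includes the cells marked by Jam2. The title of the study presents miR-1247-5p as a microRNA that falls during development and whose restoration was tested for nerve cell survival and axon growth.

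A microRNA finds its targets mostly through its seed, bases 2 to 8, which pairs with the 3′ untranslated region of a messenger RNA. The mature microRNA is shown because the adult comparison turns on it, and the site in Isl2 because it was the only seed match of the length searched in the 3′ untranslated regions of the 10 factors. The microRNA is from RefSeq (GRCm38.p6, chr12:110278094-110278115, minus strand) with its seed in capitals, and the Isl2 site is from the GRCm39 genome (chr9:55452961-55452987, plus strand, in the 3′ untranslated region of the last exon) with the match in capitals.
mmu-miR-1247-5p: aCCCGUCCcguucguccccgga
Isl2 site: acgcgaccgcGACGGGAcggccagcag
Matches searched on the transcript strand were GGACGGG, which pairs with bases 2 to 8, and GACGGGA, which pairs with bases 2 to 7 and is followed by A. GGACGGG occurred in the 3′ untranslated region of 0 of the 10 factors and of 3.27% of the 9788 tested genes with an annotated region. Either match occurred in 1 of the 10, Isl2, at position 148 of 641 bases, and in 5.09% of the tested genes. Outside the 3′ untranslated region, GGACGGG occurred at 1 place in the Ebf3 transcript and at 2 in the Tbr1 transcript. Over all tested genes, the median log2 fold change between adult miR1247 and adult mCherry was -0.011 for the 320 genes with GGACGGG and -0.031 for the 9468 genes without it. Isl2, whose match is GACGGGA, is among the genes without GGACGGG, and genes with GACGGGA were not compared as a group. A match describes the letters of the sequence, and pairing was not tested.

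Values are FPKM, fragment numbers scaled to transcript length and to library size, so levels can be set beside each other between genes. Read counts are not given, so the depth behind a value is unknown. Libraries of 1 group correlated across genes at 0.98 to 0.985 (Pearson, log2 scale), the adult groups with each other at 0.96 to 0.962, and both adult groups with E18 at 0.692 to 0.701. Differences were tested with limma on log2(FPKM + 1) over 9987 genes and called at an adjusted p (Benjamini-Hochberg) of 0.05. Fold changes on that scale understate the change of low genes. All 17 ganglion cell markers that are not transcription factors were among the tested genes, and none of the cone, microglial or endothelial markers searched was listed in the table. Lists of other cell types were also incomplete, with 3 of 12 rod markers and 5 of 10 amacrine markers listed. A marker that is not listed may therefore still be expressed.

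In E18 cells, 8 of the 10 factors were higher than in adult mCherry cells and Eomes was lower, while Tbr1 missed the threshold. Among all tested genes, 40.2% were called higher and 29.8% lower in E18. The median log2 fold change was 1.64 over the 10 factors and 0.16 over all genes. In adult miR1247 cells, 8 of the 10 factors were lower than in adult mCherry cells and 0 were higher, against 6.22% of all tested genes called lower and 3.53% called higher. The median log2 fold change was -0.72 over the 10 factors and -0.03 over all genes. Irx4 and Tbr1 were the factors that were not called. Of these 8 calls, 5 (Pou4f1, Pou4f2, Isl2, Ebf1 and Ebf3) held in all 18 settings tried, and the other 3 were lost when single libraries were left out. The libraries of E18 and adult mCherry did not overlap for any of the 10, with 9 higher (49.0% of all tested genes) and 1 lower (36.5%) in E18. Those of adult miR1247 and adult mCherry did not overlap either, with all 10 lower in adult miR1247 (32.4% of all tested genes, beside 25.3% without overlap in the other direction). Both comparisons use the same 2 adult mCherry libraries. In bulk RNA, fewer cells of a type and less RNA per cell cannot be told apart.

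**Figure D1:**
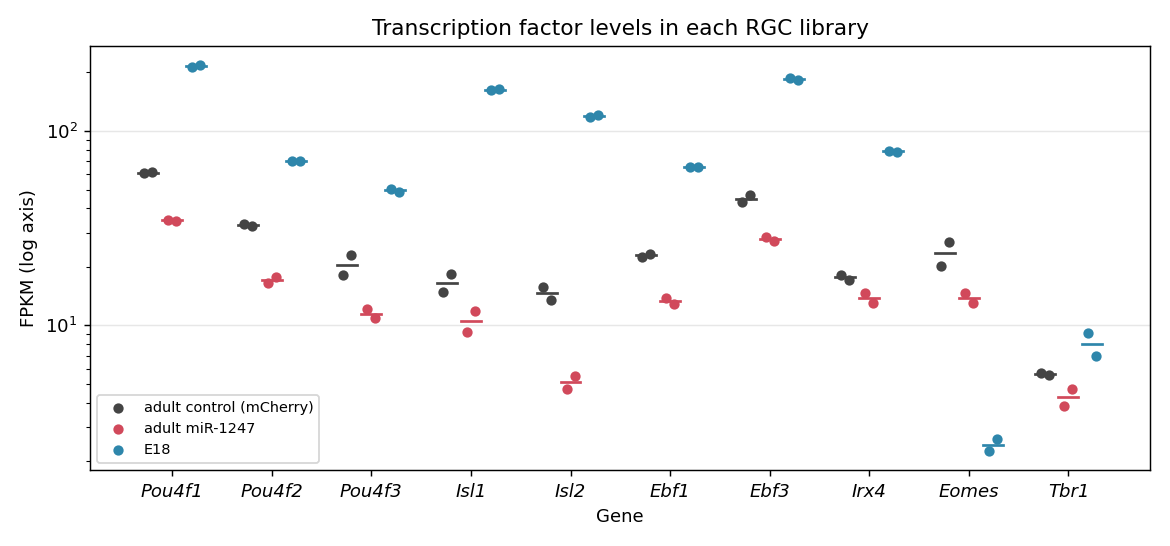
FPKM of each of the 10 factors (log axis) in each of the 6 libraries, with points for libraries and bars for group means. For 9 of the 10 factors both E18 libraries lie above every adult library, Eomes shows the opposite order, and every adult miR1247 library lies below both adult mCherry libraries.

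The Brn3 factors are POU-homeodomain proteins. Pou4f1 (Brn3a), which takes part in dendrite patterning, was the highest of the 10 factors in every group. Its FPKM was 60.6 and 61.7 in adult mCherry, 34.9 and 34.4 in adult miR1247, and 213 and 218 in E18. The 3 groups were separate, with E18 highest and adult miR1247 lowest. Pou4f1 was 3.53 times higher in E18 than in adult mCherry (log2 fold change 1.80 ± 0.0554 SE, limma adjusted p = 7.72e-07). It was 43.4% lower in adult miR1247 (log2 fold change -0.80 ± 0.0554 SE, 95% interval -0.94 to -0.67, limma adjusted p = 0.00195).

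Pou4f2 (Brn3b), which mouse ganglion cells need to differentiate and survive, had FPKM values of 33.1 and 32.4 in adult mCherry, 16.6 and 17.8 in adult miR1247, and 70.2 and 70.5 in E18. The groups again did not overlap. Pou4f2 was 2.15 times higher in E18 (log2 fold change 1.08 ± 0.0759 SE, limma adjusted p = 2.81e-05), the smallest called rise among the 10 factors. It was 47.5% lower in adult miR1247 (log2 fold change -0.89 ± 0.0759 SE, limma adjusted p = 0.00339).

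Pou4f3 (Brn3c), which also specifies the hair cells of the inner ear, was the lowest of the family in every group. Its FPKM was 18.1 and 22.9 in adult mCherry, 12.1 and 10.9 in adult miR1247, and 50.3 and 48.6 in E18. The adult mCherry libraries were the farthest apart, and the groups still did not overlap. Pou4f3 was 2.41 times higher in E18 (log2 fold change 1.24 ± 0.128 SE, limma adjusted p = 0.00017). It was 44.0% lower in adult miR1247 (log2 fold change -0.78 ± 0.128 SE, limma adjusted p = 0.0199), and this call was lost without adult mCherry replicate 2 (adjusted p = 0.0696), adult miR1247 replicate 1 (0.0809) or 2 (0.104), and E18 replicate 1 (0.0638) or 2 (0.0626), as well as with no variance trend (0.0504).

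The summed level of the 3 Brn3 genes was 112 and 117 FPKM in adult mCherry, 63.5 and 63.0 in adult miR1247, and 333 and 337 in E18. Their proportions also differed. The ratio of Pou4f1 to Pou4f2 was 1.83 and 1.9 in adult mCherry, 2.1 and 1.93 in adult miR1247, and 3.03 and 3.1 in E18, so Pou4f1 made up more of the family at E18, and the adult groups lay close together. The ratio of Pou4f3 to Pou4f2 ranged from 0.548 to 0.727 over all libraries and the 3 groups overlapped. Ratios were described and not tested. The longest exact stretch shared by the transcripts was 71 bases for Pou4f1 and Pou4f2, shorter than the 100-base reads, 41 for Pou4f1 and Pou4f3, and 35 for Pou4f2 and Pou4f3.

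**Figure D2:**
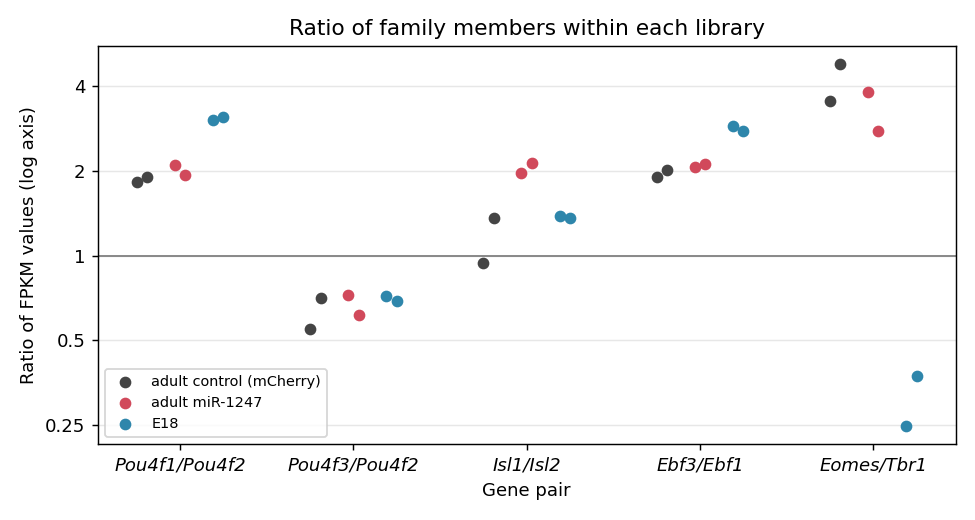
Ratios of FPKM between related factors (log axis) in each of the 6 libraries, with points for libraries coloured by group. Pou4f1 to Pou4f2 and Ebf3 to Ebf1 are highest in E18, Isl1 to Isl2 is highest in adult miR1247, and Eomes to Tbr1 is above 1 in all adult libraries and below 1 in both E18 libraries.

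The Islet factors are LIM-homeodomain proteins, and they showed the largest rises in E18 among the 10 factors. Isl1, the partner of Pou4f2 in ganglion cell differentiation and also a factor of bipolar and starburst amacrine cells, had FPKM values of 14.8 and 18.4 in adult mCherry, 9.22 and 11.8 in adult miR1247, and 163 and 164 in E18. Both E18 libraries were far above all adult ones. Isl1 was 9.85 times higher in E18 (log2 fold change 3.23 ± 0.142 SE, limma adjusted p = 3.59e-06), and 98.8% of the tested genes had a lower log2 fold change. Isl1 was 36.7% lower in adult miR1247 (log2 fold change -0.61 ± 0.142 SE, 95% interval -0.95 to -0.27, limma adjusted p = 0.0448). This call lay at the threshold: it held in 5 of the 18 settings and was lost when any 1 of the 6 libraries was left out, with adjusted p from 0.0712 to 0.162.

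Isl2 had FPKM values of 15.8 and 13.5 in adult mCherry, 4.7 and 5.52 in adult miR1247, and 118 and 121 in E18. The 3 groups were separate, with both adult miR1247 libraries lowest. Isl2 was 8.16 times higher in E18 (log2 fold change 2.95 ± 0.116 SE, limma adjusted p = 2.29e-06). In adult miR1247 it was 65.1% lower (log2 fold change -1.35 ± 0.116 SE, 95% interval -1.63 to -1.08, limma adjusted p = 0.00339), the largest fall among the 10 factors, and 0.32% of the tested genes had a lower log2 fold change. Isl2 is the gene with the seed match printed above, and whether the match has a part in its fall was not tested. The ratio of Isl1 to Isl2 was 0.94 and 1.36 in adult mCherry, 1.96 and 2.14 in adult miR1247, and 1.38 and 1.36 in E18, so both adult miR1247 libraries were the highest, and 1 adult mCherry library lay level with E18 and the other below it. The summed Islet level was 30.6 and 31.9, 13.9 and 17.3, and 282 and 285 FPKM in the same order of groups.

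Ebf1 and Ebf3 are helix-loop-helix proteins of the COE family that are found in ganglion cells and in some amacrine cells. Ebf3 was the second highest of the 10 factors in every group, with FPKM values of 43.0 and 46.6 in adult mCherry, 28.4 and 27.2 in adult miR1247, and 188 and 182 in E18. Ebf1 had FPKM values of 22.6 and 23.2, 13.8 and 12.9, and 65.5 and 65.3 in the same order. For both genes the 3 groups were separate. Ebf3 was 4.13 times higher in E18 (log2 fold change 2.02 ± 0.0689 SE, limma adjusted p = 1.18e-06) and 37.9% lower in adult miR1247 (-0.67 ± 0.0689 SE, adjusted p = 0.00584). Ebf1 was 2.86 times higher in E18 (log2 fold change 1.47 ± 0.0811 SE, limma adjusted p = 9.68e-06) and 41.6% lower in adult miR1247 (-0.73 ± 0.0811 SE, adjusted p = 0.0071). The ratio of Ebf3 to Ebf1 was 1.9 and 2.01 in adult mCherry, 2.06 and 2.11 in adult miR1247, and 2.88 and 2.78 in E18.

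Irx4, an Iroquois homeodomain factor that represses Slit1 in chick retina, had FPKM values of 18.1 and 17.2 in adult mCherry, 14.7 and 13.1 in adult miR1247, and 79.0 and 78.1 in E18. E18 stood well above the adult groups, which lay close together without overlap. Irx4 was 4.45 times higher in E18 (log2 fold change 2.09 ± 0.0905 SE, limma adjusted p = 3.41e-06). The difference between the adult groups, 21.2% lower in adult miR1247, missed the threshold (log2 fold change -0.32 ± 0.0905 SE, 95% interval -0.54 to -0.11, limma adjusted p = 0.0712), and it was not called in any of the 18 settings.

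Eomes (Tbr2), the T-box factor of the melanopsin ganglion cells, was the only factor of the 10 that was lower in E18. Its FPKM was 20.2 and 26.7 in adult mCherry, 14.6 and 13.1 in adult miR1247, and 2.26 and 2.6 in E18. The adult mCherry group was the highest and had the widest spread. Eomes was 9.66 times lower in E18 than in adult mCherry (log2 fold change -2.82 ± 0.166 SE, limma adjusted p = 1.29e-05). It was 41.1% lower in adult miR1247 (log2 fold change -0.71 ± 0.166 SE, 95% interval -1.11 to -0.31, limma adjusted p = 0.0462), and this call held in 4 of the 18 settings and was lost without any 1 of the 6 libraries, with adjusted p from 0.0652 to 0.181.

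Tbr1 was the lowest of the 10 factors in both adult groups. Its FPKM was 5.68 and 5.58 in adult mCherry, 3.84 and 4.69 in adult miR1247, and 9.09 and 6.92 in E18. The E18 libraries were higher but far apart. The difference between E18 and adult mCherry, 1.42 times, was not called (log2 fold change 0.43 ± 0.179 SE, 95% interval 0.00 to 0.86, limma adjusted p = 0.0679), although it passed without E18 replicate 2 (0.0478) and with no variance trend (0.0493). Nor was the adult difference of 24.3% lower in adult miR1247 (log2 fold change -0.34 ± 0.179 SE, 95% interval -0.77 to 0.09, limma adjusted p = 0.268). The ratio of Eomes to Tbr1 was 3.55 and 4.79 in adult mCherry, 3.8 and 2.78 in adult miR1247, and 0.248 and 0.375 in E18.

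**Figure D3:**
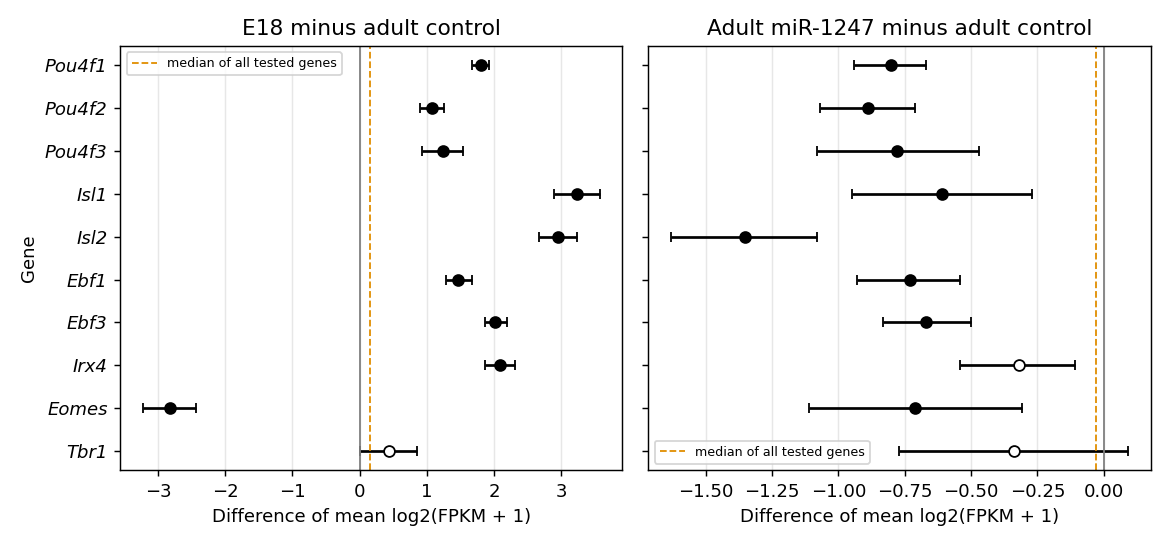
log2 fold change of FPKM + 1 for the 10 factors, with 95% intervals, for E18 against adult mCherry and for adult miR1247 against adult mCherry, which share the adult mCherry libraries. In E18, 9 of the 10 values are above 0 and Eomes is below it, and all 10 values for adult miR1247 are below 0.

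By level, adult mCherry cells ordered the factors as Pou4f1, Ebf3 and Pou4f2, each apart from the next, then Eomes, Ebf1, Pou4f3, Irx4, Isl1 and Isl2, whose neighbouring values overlapped, and last Tbr1. In adult miR1247 the first 3 were in the same order and Isl2 and Tbr1 were last. In E18 the order was Pou4f1, Ebf3, Isl1, Isl2, Irx4, Pou4f2, Ebf1, Pou4f3, Tbr1 and Eomes, and no neighbours overlapped. Set against all tested genes of the same group, Isl1 was above 56.7% of genes in adult mCherry, 42.7% in adult miR1247 and 96.6% in E18. Eomes was above 68.0%, 51.8% and 6.08% in the same order, and Pou4f1 above 88.5%, 78.4% and 97.6%.

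Between E18 and adult miR1247, 9 factors were called higher in E18 and Eomes lower, against 41.5% and 28.4% of all tested genes. This comparison shares its libraries with both others and adds no independent values. Isl2 was 23.4 times higher in E18 than in adult miR1247 (log2 fold change 4.30, limma adjusted p = 4.83e-07), beside 8.16 times against adult mCherry. For Eomes the log2 fold change of E18 over adult miR1247 was -2.11 (limma adjusted p = 4.79e-05), beside -2.82 over adult mCherry. Tbr1 was called in this comparison (1.88 times, limma adjusted p = 0.00769), and the call was lost without E18 replicate 1 (0.051).

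Beside the 10 factors, genes of the same families and of the same pathway were counted from lists chosen with earlier results of these data known. For every list here and below, the counts are to be read beside the shares of all tested genes. These shares were 40.2% higher and 29.8% lower in E18, and 3.53% higher and 6.22% lower in adult miR1247. Of the 7 genes described downstream of Pou4f2 or Isl1 in developing mouse ganglion cells, 6 were higher and 1 lower in E18, and 3 were lower in adult miR1247. Gap43, Nefl, Nefm and Sncg of this list are also counted among the ganglion cell markers below. Ablim1, Shh and Mstn, which are in this list alone, were not called in adult miR1247. Gap43, a growth cone protein, rose from 148 ± 10.0 (SD, n = 2) to 1326 ± 12.1 FPKM in E18 (log2 fold change 3.16, limma adjusted p = 2.35e-07). Its adult miR1247 values were 141 and 127, beside 141 and 155 in adult mCherry, and it was not called there. Shh, the signal that ganglion cells send to progenitors, was the member that fell in E18 (log2 fold change -0.87, limma adjusted p = 0.00379). In adult miR1247 the neurofilament genes Nefm (log2 fold change -1.16, limma adjusted p = 0.000118) and Nefl (-1.0, 6.68e-05) and the synuclein gene Sncg (-0.56, 0.00204) fell, and these 3 calls held without each library.

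The LIM-domain cofactor Ldb1, which bridges Islet proteins, rose in E18 from 51.0 ± 2.52 to 106 ± 1.55 FPKM (log2 fold change 1.05, limma adjusted p = 5.54e-05). In adult miR1247 its log2 fold change was 0.15 (limma adjusted p = 0.308). Of the 8 tested genes of the LIM list, 2 were higher and 4 lower in E18, and 1, Lmo4, was higher in adult miR1247 (log2 fold change 0.40, limma adjusted p = 0.0435), a call lost without any 1 library. Of 5 tested genes of the POU family outside Brn3, 4 were higher in E18. Of 7 tested genes of the Ebf, Iroquois and T-box families, 4 were higher and 2 lower in E18, and 2, Irx2 and Irx3, were lower in adult miR1247. Irx2 was 11.4 ± 0.0265 FPKM in adult mCherry, 6.66 ± 0.809 in adult miR1247 and 61.5 ± 2.38 in E18, the same order of groups as Irx4. Irx3 was lower in both comparisons (log2 fold change -0.63, limma adjusted p = 0.00669 in E18, and -0.87, 0.0197 in adult miR1247). In adult miR1247, this list had 0 to 1 called gene when single libraries were left out.

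Factors of ganglion cell specification and early differentiation rose in E18 in 11 of 15 tested genes and fell in 2. Sox11 rose from 1.46 ± 0.0875 to 45.9 ± 0.994 FPKM (log2 fold change 4.25, limma adjusted p = 1.13e-06) and Sox4 from 14.8 ± 1.95 to 193 ± 2.91 (3.62, 5.57e-07). Gfi1, a zinc finger repressor, rose as well (log2 fold change 3.36, limma adjusted p = 1.36e-05), while Nhlh2 (-1.78, 1.60e-05) and Hmx1 (-1.08, 0.000787) fell. In adult miR1247, Myt1 and Pax6 were higher and Myt1l lower, and without single libraries 0 to 2 genes of this list were called. Of the 27 tested factors of subtypes and mature ganglion cells, 9 were higher and 11 lower in E18, beside 40.2% and 29.8% of all tested genes. The largest falls were in Bhlhe22 (log2 fold change -5.29, limma adjusted p = 8e-08) and Klf9 (-5.10, 3.11e-07). In adult miR1247, 1 was higher and 7 lower, and 0 to 2 were called when single libraries were left out.

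Genes of the ganglion cell subtypes that these factors mark were counted in the same way. Of 13 tested, 11 were lower and 1 higher in E18, and 7 were lower and 2 higher in adult miR1247. The 2 higher in adult miR1247 were Igfbp4 (log2 fold change 1.4, limma adjusted p = 0.00167) and Igfbp2 (0.95, 0.00274). In E18, Igfbp4 was the 1 called higher and Igfbp2 was lower. Opn4, the melanopsin gene, was 29.2 and 29.9 FPKM in adult mCherry, 10.7 and 8.23 in adult miR1247, and 3.21 and 1.61 in E18, and these groups did not overlap. Its log2 fold change was -3.21 in E18 (limma adjusted p = 4.04e-05) and -1.55 in adult miR1247 (0.0188), where it was called without 2 of the 6 libraries and not without the other 4, with adjusted p up to 0.102. Jam2, the gene of the Tbr1 cells, was 27.2 and 27.4 FPKM in adult mCherry, 17.9 and 18.4 in adult miR1247, and 6.08 and 7.9 in E18 (log2 fold change -1.83 in E18 and -0.56 in adult miR1247, limma adjusted p = 0.0478 for the latter, which was lost without any 1 library, at 0.0556 to 0.171). Tbr1 itself was not called in either comparison. The number called in adult miR1247 was 4 to 8 when single libraries were left out, and 4 without each adult library.

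**Figure D4:**
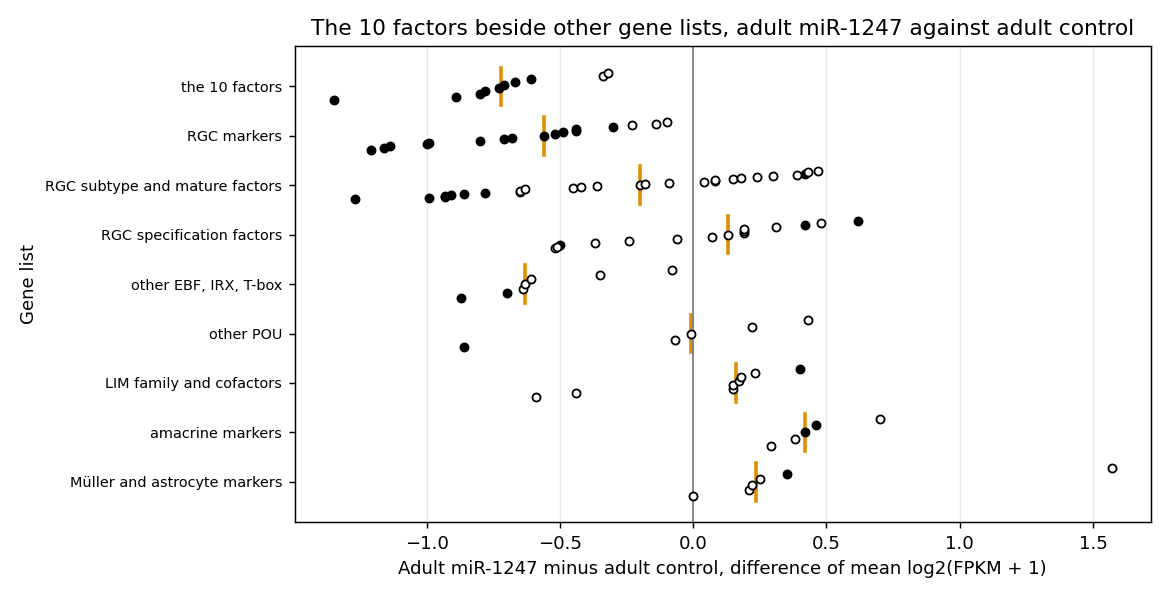
Difference of mean log2(FPKM + 1) between adult miR1247 and adult mCherry for the tested genes of each list, with 1 point per gene (filled where called at an adjusted p under 0.05, open where not) and an orange bar at the median of the list. The 10 factors (median -0.72) and the 17 ganglion cell markers (median -0.56) lie below 0 in every gene, and the amacrine markers have a median of 0.42.

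Ganglion cell markers that are not transcription factors all had log2 fold changes below 0 in adult miR1247, as the 10 factors did. The markers moved in both directions in E18. Among these markers, Gap43, Nefl, Nefm and Sncg are also in the list downstream of Pou4f2 or Isl1, and Chrna6 is in the subtype list. Of the 17 tested, 14 were lower in adult miR1247 and 0 higher, with a median log2 fold change of -0.56, and 10 to 14 were lower when single libraries were left out. Their summed level was 4834.8 to 4910.0 FPKM in adult mCherry, 3230.4 to 3240.2 in adult miR1247 and 8526.6 to 8533.9 in E18. The 10 factors together summed to 252 and 268, 153 and 151, and 959 and 957 FPKM, which is 5.13% and 5.55% of the summed markers in adult mCherry, 4.72% and 4.69% in adult miR1247 and 11.2% in both E18 libraries. In E18, 10 markers were higher and 7 lower, with Tubb3 (log2 fold change 2.36) and Stmn2 (2.14) among the highest and Nefh (-3.87) and Scn1a (-2.69) among the lowest.

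Markers of other retinal cells moved between the same groups, and their part in the values of the 10 factors was not tested. Amacrine markers, of which 5 of 10 were tested, summed to 675 to 716 FPKM in adult mCherry, 923 to 967 in adult miR1247 and 309 to 323 in E18, and Pax6 was higher in adult miR1247 (log2 fold change 0.42, limma adjusted p = 0.00871). Müller glia and astrocyte markers, 6 of 13 tested, summed to 1229.5 to 1574.5, 1907.8 to 2016.7 and 181 to 182 FPKM. Much of the adult difference in this sum was Glul, at 463 and 122 in adult mCherry and 795 and 632 in adult miR1247. Glul was not called between the adult groups (log2 fold change 1.57, limma adjusted p = 0.116). Dkk3 was the marker of this list called higher in adult miR1247 (log2 fold change 0.35, limma adjusted p = 0.0155), a call lost without some single libraries. Cholinergic amacrine markers, 2 of 8 tested, summed to 27.5 to 29.7, 35.9 to 36.2 and 8.76 to 10.5 FPKM. Rod markers were listed for 3 of 12 genes (Rom1, Reep6 and Sag), of which 2 were tested, and the 3 summed to 45.6 to 46.8, 24.3 to 26.9 and 5.57 to 6.41 FPKM, with Sag listed at 0 in both adult miR1247 libraries and in 1 E18 library. Bipolar markers were tested for 4 of 13 genes, of which Isl1 is one of the 10 factors. Without Isl1, the other 3 summed to 25.15 to 30.04 FPKM in adult mCherry, 40.38 to 40.94 in adult miR1247 and 11.32 to 12.66 in E18. Of these, Prkca was lower in E18 (log2 fold change -1.15, limma adjusted p = 0.000198) and had a log2 fold change of 0.47 in adult miR1247 (limma adjusted p = 0.0597). Of 12 progenitor markers, 2 were tested, Dapl1 and Hes6, and both were higher in E18 and neither was called in adult miR1247. Horizontal cell markers, 2 of 5 tested, summed to 27.3 to 31.7 FPKM in adult mCherry, 12.4 to 14.0 in adult miR1247 and 6.63 to 9.62 in E18. Calb1, which is also in the ganglion cell subtype list, was the horizontal cell marker called lower in adult miR1247 (log2 fold change -1.16, limma adjusted p = 0.0137, lost without 4 of the 6 libraries in turn, at up to 0.081). Oligodendrocyte markers, 2 of 8 tested, summed to 35.4 to 36.8, 47.7 to 51.2 and 16.5 to 17.4 FPKM. Mbp was the one called higher in adult miR1247 (log2 fold change 0.62, limma adjusted p = 0.0376, lost without any 1 library, at up to 0.161).

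The genes with the profiles closest to each factor were found by Euclidean distance between log2(FPKM + 1) profiles over the 6 libraries, each centred on its mean. Pou4f1 was closest to Rgs4 (0.098), Arpp19 (0.166) and Ebf3 (0.242), and Pou4f1 and Ebf3 were the closest pair within the 10. Ebf3 was closest to Pik3cd (0.108) and Irx4 to Arpc5 (0.134) and Stmn2 (0.169). Pou4f2 was closest to the ganglion cell marker Rbpms2 (0.236), and Pou4f3 to Fhdc1 (0.163). Ebf1 was closest to Rbms3 (0.249), Eomes to Sorl1 (0.309) and Tbr1 to Zfp330 (0.167). Isl1 was nearest to Ldlrad3 (0.246) and Isl2 to Igsf9 (0.571), which was the greatest distance to a nearest gene among the 10 factors. These distances rest on 6 libraries in 3 groups and describe the order of the groups.

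The promoters were read from RefSeq (GRCm38.p6), 250 bases before to 50 after the start, and 9 of the 10 factors had an entry. Pou4f1 and Isl1 are shown because they were the factors holding CAGCTG, an E-box of the kind basic helix-loop-helix proteins bind, given in capitals, at 118 and 103 bases before the start. The Pou4f1 promoter lies at chr14:104467950-104468249 and the Isl1 promoter at chr13:116309639-116309938, both on the minus strand and printed 5′ to 3′ in the direction of the gene.
Pou4f1: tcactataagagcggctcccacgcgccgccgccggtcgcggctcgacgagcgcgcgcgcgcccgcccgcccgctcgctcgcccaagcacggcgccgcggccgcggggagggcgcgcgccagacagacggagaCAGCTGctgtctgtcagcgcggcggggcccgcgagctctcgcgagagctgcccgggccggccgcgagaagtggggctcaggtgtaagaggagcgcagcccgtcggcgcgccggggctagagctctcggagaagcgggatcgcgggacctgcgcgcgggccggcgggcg
Isl1: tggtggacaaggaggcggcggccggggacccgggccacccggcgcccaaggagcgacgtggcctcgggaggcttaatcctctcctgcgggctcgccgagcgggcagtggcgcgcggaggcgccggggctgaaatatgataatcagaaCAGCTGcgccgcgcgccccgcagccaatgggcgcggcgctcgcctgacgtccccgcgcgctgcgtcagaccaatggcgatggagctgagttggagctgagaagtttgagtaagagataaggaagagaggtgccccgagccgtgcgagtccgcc
CAGCTG, read on both strands, occurred in 2 of the 9 promoters and in the promoters of 18.3% of all genes. The wider CANNTG, which includes it, occurred in 5 of 9 and in 75.0% of genes. TAATTA, a core that many homeodomain proteins bind, occurred in Tbr1 alone of the 9 and in 6.12% of genes. A POU motif ATNATTAAT (1.17% of genes), the palindromic COE motif (1.06%), the T-box motif AGGTGTGA (1.48%), the Islet motif CTAATG (8.49%) and TATAAA (15.7%) occurred in 0 of the 9. These windows hold no measurement of binding. The GC share was 78.3% in Pou4f1, 77.0% in Ebf3, 70.7% in Irx4, 69.7% in Pou4f2, 69.0% in Isl1 and 67.3% in Isl2, beside 47.3% in Eomes, 46.0% in Tbr1, 36.7% and 53.0% in the 2 promoters of Ebf1, and a median of 52.7% over all promoters.

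In the GRCm39 annotation (GENCODE vM39, the build of the deposited values), Pou4f1 lies at chr14:104699112-104705504, Pou4f2 at chr8:79159638-79163278, Isl1 at chr13:116434817-116446235, Isl2 at chr9:55445956-55453464, Ebf1 at chr11:44508138-44898918, Ebf3 at chr7:136795402-136916218, Irx4 at chr13:73407700-73417745, Eomes at chr9:118307280-118315200 and Tbr1 at chr2:61633274-61644458. Pou4f2, Isl2, Ebf1, Ebf3, Irx4 and Eomes each overlap an annotated antisense gene. The library kit as named does not keep strand, so reads from a factor and its antisense gene cannot be told apart. Assembled loci were much longer than the annotated genes for Pou4f1 (277.0 kb), Pou4f3 (71.2 kb), Isl1 (224.6 kb) and Isl2 (399.6 kb). Whether reads from outside the genes entered these values was not tested. The table also lists other genes at the loci of Pou4f1 (D130079A08Rik, at 2 loci) and of Isl2 (Scaper). At 1 locus, D130079A08Rik had 4.52 and 4.28 FPKM in adult mCherry, 2.66 and 3.06 in adult miR1247, and 21.7 and 19.6 in E18. Its other locus had the same order of groups, at 1.64 to 17.1 FPKM. Scaper had 11.3 and 11.1, 11.9 and 8.89, and 27.1 and 25.3 FPKM, listed by group as above.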

How the data were processed

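Deposited values were FPKM per assembled transcript locus from the authors, per the submitters' processing notes made with HISAT2, Cufflinks and Cuffdiff on mm39; versions and read counts are not given in the sources used here. The authors' deposited table adds a constant of 1e-05 to each value, which was subtracted. The authors' deposited log2 ratios differed from ratios recomputed from FPKM by at most 0.001518 (miR1247) and 0.002056 (E18). Loci sharing a gene name were summed, and names made of the same loci were taken once, giving 10162 genes. Genes with a mean FPKM of at least 1 (9987) were compared with limma 3.58.1 (R 4.3.3) on log2(FPKM + 1), with 3 group means, a variance trend and 3 residual degrees of freedom, and Benjamini-Hochberg adjustment over all tested genes. The procedure was tested on simulated data. Named related genes were, per list and comparison, the 3 called genes with the highest and the 3 with the lowest log2 fold change; Jam2, Glul and Sag fall outside this rule and were named after their values were seen. The 10 factors, the lists and the tests were chosen with earlier results of these data known. Replicate numbers did not pair the libraries: same-numbered libraries correlated in their deviations at -0.00812, -0.00175 and 0.00353. Sequences and promoters were matched by symbol to RefSeq tables (GRCm38.p6), 3′ untranslated regions were read from GRCm39 with GENCODE vM39, and Python 3.11.15 was used. Some genes that this rule names are not reported here.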

Additional observations from a re-analysis of the deposited data

How the results depend on the processing

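Of the 10 factors, the number called in E18 against adult mCherry was 9, and it was 10 with no variance trend; without single libraries it was 9 to 10. In adult miR1247 against adult mCherry it was 8, and 5 with no variance trend; it was 5 to 6 without single libraries (6 without adult mCherry replicate 1, 5 without each of the others) and 6 to 8 in the remaining settings. In E18 against adult miR1247 it was 10 and 9 to 10 without single libraries. No factor changed direction in any of the 18 settings.

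With the replicate block the counts of called factors were 9, 7 and 10 in the same order of comparisons; the numbers do not pair the libraries. Over all genes, 974 were called in adult miR1247 (353 higher, 621 lower), 343 with no variance trend, 584 with the replicate block and 123 to 275 without single libraries, of which the lowest was without adult miR1247 replicate 1. Scaling moved the split: 46.6% of calls were higher with median-ratio scaling and 15.1% with equal totals, beside 36.2%. Median-ratio scaling moved the median of all genes from 0.16 to 0.02 in E18 against adult mCherry. Of the calls of related genes named, 54 of 55 in E18 against adult mCherry, 8 of 25 in adult miR1247 against adult mCherry and 50 of 54 in E18 against adult miR1247 held without each library. With 2 libraries per group and unknown depth, small differences cannot be resolved.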
